A study of Homo sapiens with 90 samples.

Results

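The genes of the lysosome and of the vacuolar ATPase were followed in A673, a human Ewing sarcoma cell line, after 24 h of exposure to imazalil, fenbuconazole or 2,4-D. The members were 49 of the 19774 genes measured. They were 27 listed lysosomal genes and 22 genes whose symbols start with ATP6V0 or ATP6V1, each read from 1 probe set annotated to that gene alone. By role they were 2 transcription factors, 5 membrane proteins, 6 proteins of lipid handling, 6 peptidases and their helpers, 7 glycosidases, 1 cargo receptor, 8 subunits of the V0 sector, 13 subunits of the V1 sector and 1 antisense RNA, ATP6V0E2-AS1, which met the rule by its symbol and is no subunit. ATP6V0A4 was not analysed here.

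Each chemical was given at 9 concentrations (0.001, 0.01, 0.1, 1 and 10 µM, and 0.003, 0.03, 0.3 and 3 µM between them) in medium with 0.2% DMSO, with 3 arrays per concentration and 3 arrays of DMSO alone. Imazalil is an imidazole fungicide, fenbuconazole a triazole fungicide and 2,4-D (2,4-dichlorophenoxyacetic acid) a phenoxyacetic acid herbicide. All groups were the same line, so the results speak for 1 tumour line, and the 3 arrays of a group come, by the methods of the study, from experiments repeated on different batches of these cells. Values are log2 expression levels normalized within the 30 columns of a chemical, so a level has a meaning within its set, and only differences are set beside each other between chemicals.

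Lysosomes digest material delivered by endocytosis and autophagy. Their acidity is kept by the vacuolar ATPase, in which the V1 sector in the cytosol hydrolyses ATP and the V0 sector in the membrane carries protons inwards. Lipophilic weak bases, a group to which imazalil belongs, can cross membranes uncharged and become trapped in acidic compartments. Cells with stressed lysosomes are known to move the transcription factors TFEB and TFE3 into the nucleus, where they bind the CLEAR motif in the promoters of many lysosomal genes. The question was therefore whether transcripts of these genes were higher at 10 µM imazalil, beside the same concentration of fenbuconazole and of 2,4-D.

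The CLEAR motif was looked for in the promoters, because it is the sequence that TFEB and TFE3 are known to bind. Promoter sequences from RefSeq (GRCh38.p14, 250 bases before to 50 after a gene's start) were at hand for 36 of the 49 members, with 56 promoters in all. The core of the motif, TCACGTGA, stood in 6 of these 56 promoters (10.7%), of 6 different genes, against 344 of 35116 promoters of all genes (0.98%). The shorter E-box, CACGTG, which TCACGTGA contains, stood in 12 of the 56 (21.4%), of 11 genes, against 7.26% of all promoters. Both motifs read the same on either strand. The 6 genes with the core are shown with 1 window each, and ATP6V0E2 is shown as the E-box gene with the largest difference at 10 µM imazalil. Capitals mark the motif, and positions count from the gene's start, with -1 as the base before it.
LAMP1, chr13:113297199-113297228, plus strand, motif from -29: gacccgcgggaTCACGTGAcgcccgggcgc
MCOLN1, chr19:7522560-7522611, plus strand, motif from -42: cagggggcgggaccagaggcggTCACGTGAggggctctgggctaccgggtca
CTSA, chr20:45891298-45891327, plus strand, motif from -26: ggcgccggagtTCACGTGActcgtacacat
GAA, chr17:80101482-80101533, plus strand, motif from -77: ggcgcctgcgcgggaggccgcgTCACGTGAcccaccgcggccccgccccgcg
ATP6V0D1, chr16:67481188-67481239, minus strand, motif from -60: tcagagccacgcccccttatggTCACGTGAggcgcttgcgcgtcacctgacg
ATP6V1G1, chr9:114587688-114587739, plus strand, motif from -59: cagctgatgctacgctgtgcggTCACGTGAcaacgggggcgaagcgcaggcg
ATP6V0E2, chr7:149872874-149872923, plus strand, motif from -68: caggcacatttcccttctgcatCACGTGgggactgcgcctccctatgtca
LAMP1, MCOLN1 and GAA each held a second copy of the core. A match says only that these letters stand in the window, and binding was not measured.

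Some facts of the arrays touch every result. DMSO columns with the same number in the imazalil and 2,4-D sets correlated at 0.867 to 0.878 across probe sets after each probe set was centred within its set, where no other pair of columns exceeded 0.309, and were counted as the same 3 arrays, so differences against DMSO in these sets are not independent. The DMSO columns of the fenbuconazole set did not match them (0.105 to 0.185 with the imazalil columns of the same number), although the labels call the controls common. The 10 µM arrays were therefore compared mainly with the 24 arrays of the same chemical's other 8 concentrations, and with DMSO beside. The line was checked by its markers: 6 genes known to be high in Ewing sarcoma cells lay between the 89.8th and the 99.7th percentile of all genes in the 3 sets, and 9 markers of blood cells, hepatocytes, epithelium and muscle between the 5.7th and the 68.5th. Most members were well expressed, with a median percentile of 89.3 in the imazalil set, where 42 of 49 lay above the median level. Those below it were ATP6V0D2, ATP6V0E2-AS1, ATP6V1B1, ATP6V1C2, ATP6V1G2, ATP6V1G3 and GAA, so their differences are read at low levels. ATP6V0D2, ATP6V1B1, ATP6V1C2 and ATP6V1G2 lay below it in all 3 sets, ATP6V1G3 also in the fenbuconazole set and GAA also in the 2,4-D set. In cultures read in bulk, a change in the cells present and a change of RNA per cell cannot be told apart.

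At 10 µM imazalil no member passed the threshold. This held for 0 of 49 genes against the other 8 concentrations, where 0.011% of all 54613 probe sets passed, and for 0 of 49 against DMSO, where 0% passed (limma, Benjamini-Hochberg adjusted p under 0.05 over all probe sets). The smallest adjusted p of a member was 0.821 against the other 8 concentrations and 0.997 against DMSO. At an unadjusted p under 0.05, limma counted 4 members against the other 8 concentrations, all higher at 10 µM, where 5.58% of probe sets reached it. It counted 6 members against DMSO, 4 higher and 2 lower, where 4.75% of probe sets reached it. The intervals give the size of difference that the arrays could not exclude. All 49 intervals (95%) of the difference from the other 8 concentrations lay within 1.5-fold either way, with the highest upper bound at 0.45 on the log2 scale, for CTSZ, and the lowest lower bound at -0.33, for GAA. Against the 3 DMSO arrays 47 of 49 did, with bounds from -0.59 for ATP6V1C2 to 0.77 for CTSZ.

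**Figure D1:**
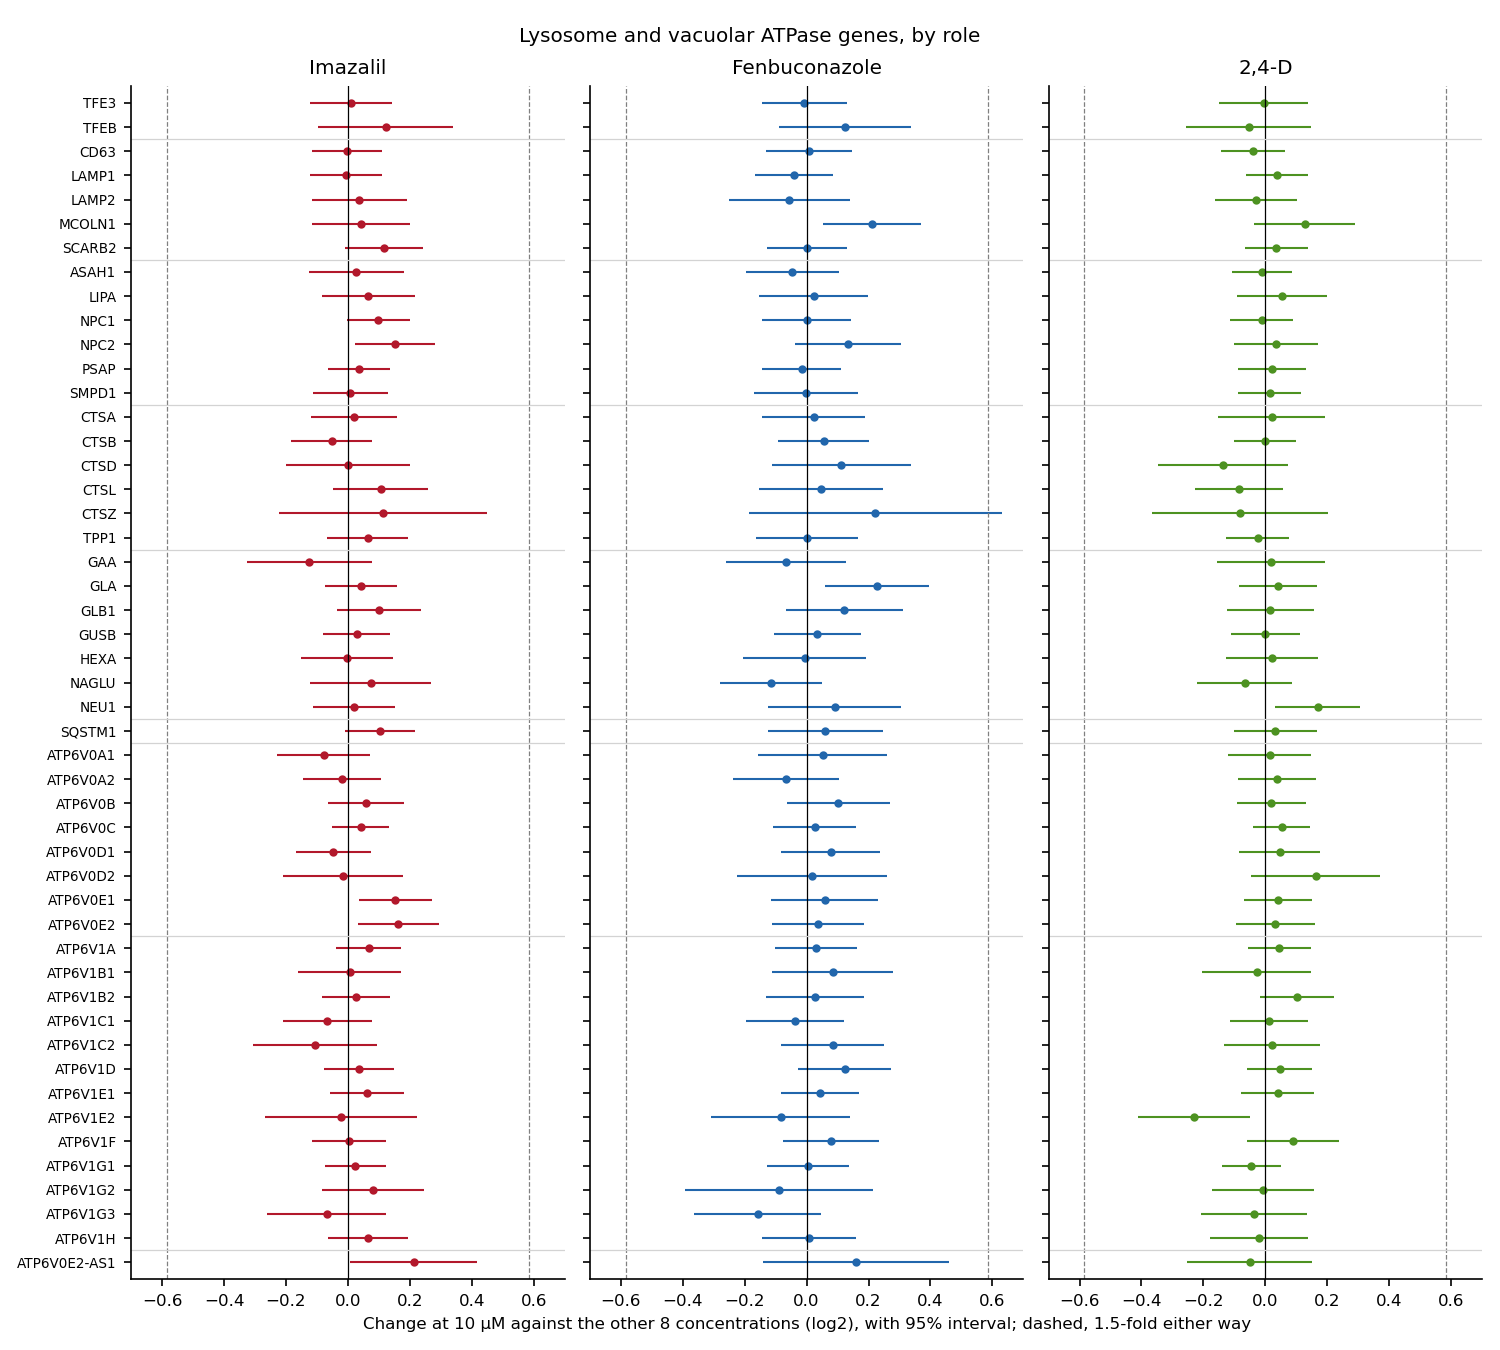
Difference (log2, x axis) between the 3 arrays at 10 µM and the 24 arrays at the other 8 concentrations for each of the 49 genes (y axis, ordered by role), with 95% intervals from limma, for imazalil, fenbuconazole and 2,4-D. Dashed lines mark 1.5-fold, which all 49 intervals stay within for imazalil and 2,4-D and 48 for fenbuconazole.

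Of the 2 transcription factors and 5 membrane proteins 0 passed at 10 µM imazalil, and the values of most lay inside the range of the other concentrations. TFEB, the master regulator of lysosomal genes, read 4.38, 4.53 and 4.34 at 10 µM imazalil, against 3.86 to 4.69 (median 4.29) at the other concentrations and 4.46, 4.24 and 4.28 in DMSO. The difference from the other concentrations was 0.12 (SE 0.11, exact permutation p = 0.259, two-sided), and the 3 values lay inside the range of the others. A second probe set of TFEB gave 0.065 (SE 0.11). Against DMSO the 2 probe sets of TFEB gave 0.091 (SE 0.14) and 0.32 (SE 0.15). TFE3, its close relative, differed by 0.011 (SE 0.065). LAMP1, the most abundant protein of the lysosomal membrane, read 11.39, 11.58 and 11.46 at 10 µM, against 11.37 to 11.66 (median 11.48) at the other concentrations and 11.51, 11.54 and 11.42 in DMSO. Its difference of -0.0056 (SE 0.056) had an interval from -0.12 to 0.11, and its other probe sets gave -0.051, -0.12 and 0.057. LAMP2, which also takes part in chaperone-mediated autophagy, lay above all 3 DMSO values at 9.16, 9.14 and 9.16, but the DMSO values reached 9.13 and the other concentrations 9.50. MCOLN1, the calcium channel that acts upstream of TFEB, read 6.30, 6.38 and 5.97, so that 1 of its arrays was the lowest of the 27 treated ones, and its difference was 0.042 (SE 0.077). SCARB2, the receptor that brings glucocerebrosidase to the lysosome, read 8.97, 9.21 and 9.25 against 8.88 to 9.15 (median 9.03) and against 8.99, 9.06 and 8.84 in DMSO. It differed by 0.12 (SE 0.061, limma adjusted p = 0.899) from the other concentrations and by 0.18 (SE 0.081, limma adjusted p = 1.00) from DMSO, where its other 3 probe sets were at 0.24, 0.41 and -0.011, and 1 of the 10 µM arrays lay inside the DMSO range.

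Among the genes of lipid handling all 6 stood higher at 10 µM imazalil than at the other concentrations, with a median difference of 0.051, and 0 of 6 passed the threshold. NPC2, the soluble protein that passes cholesterol to NPC1, read 9.51, 9.68 and 9.61 at 10 µM. The other 24 arrays ran from 9.31 to 9.60 with a median of 9.45, and DMSO gave 9.62, 9.53 and 9.45. Its difference was 0.15 (SE 0.063, limma adjusted p = 0.854, exact permutation p = 0.00444) from the other concentrations. From DMSO it was 0.069 (SE 0.085), smaller, of the same sign and less precise. NPC1, the membrane protein that exports cholesterol, read 9.03, 9.15 and 9.08 against 8.86 to 9.06 (median 9.00) and against 9.06, 8.95 and 9.06 in DMSO. Its difference was 0.10 (SE 0.05, limma adjusted p = 0.894, exact permutation p = 0.00957) from the other concentrations and 0.06 (SE 0.067) from DMSO, and a second probe set of NPC1 gave -0.017. LIPA, the acid lipase that splits cholesteryl esters, differed by 0.066, PSAP, the precursor of the saposins, by 0.036, and the ceramidase ASAH1 by 0.027. SMPD1, the acid sphingomyelinase, differed by 0.0081 (SE 0.059).

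Of the 13 digestive enzymes 0 passed, and their differences lay on both sides of 0. Of the 6 peptidases and helpers 5 stood higher, with a median difference of 0.043, led by CTSZ at 0.11 (SE 0.16) and the cysteine protease CTSL at 0.11 (SE 0.075). CTSD, the main aspartic protease, read 6.08, 5.80 and 5.41 at 10 µM against 5.43 to 5.95 (median 5.78), so that its arrays fell on both ends of the range and its mean difference was 1.4e-05. CTSB, the most studied lysosomal cysteine protease, was at -0.053 (SE 0.063), and its 5 probe sets ran from -0.055 to 0.11 with 2 of them above 0. Of the 7 glycosidases 5 stood higher, with a median difference of 0.028. The highest was GLB1, the beta-galactosidase behind the senescence stain, at 0.10 (SE 0.066), and the lowest GAA, which degrades glycogen, at -0.12 (SE 0.10). SQSTM1, the autophagy cargo receptor also called p62, read 8.45, 8.58 and 8.59 against 8.30 to 8.57 (median 8.45) and against 8.51, 8.29 and 8.30 in DMSO. It differed by 0.10 (SE 0.055, limma adjusted p = 0.901, exact permutation p = 0.0318) from the other concentrations, where its 7 probe sets ran from -0.10 to 0.23 with 5 of them above 0. From DMSO it differed by 0.17 (SE 0.074). The other probe sets of SQSTM1 gave 0.080, 0.0033, -0.0048, -0.014, -0.097 and -0.14 against DMSO.

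The vacuolar ATPase held the 2 members with the smallest limma p for imazalil against its other 8 concentrations, ATP6V0E1 and ATP6V0E2. Against DMSO the smallest were those of ATP6V1C2, at -0.32 (SE 0.13) and at a level below the median of the set, and SQSTM1. Of its 21 subunits 13 stood higher at 10 µM than at the other 8 concentrations, with a median difference of 0.023, and 0 of 21 passed. ATP6V0E1, a small membrane subunit of V0, read 10.46, 10.36 and 10.33 at 10 µM. The other 24 arrays ran from 10.09 to 10.37 with a median of 10.23, and DMSO gave 10.15, 10.16 and 10.38. All 3 arrays thus lay near or above the top of the treated range, while 1 DMSO array was as high. The difference was 0.15 (SE 0.057, limma adjusted p = 0.821, exact permutation p = 0.00137), and the 6 probe sets of ATP6V0E1 ran from -0.076 to 0.21, 5 of them above 0. ATP6V0E2, its paralog, read 7.97, 8.12 and 8.0 against 7.72 to 8.03 (median 7.88) and against 7.91, 7.92 and 7.92 in DMSO, which all 3 arrays exceeded. Its difference was 0.16 (SE 0.064, limma adjusted p = 0.841, exact permutation p = 0.00479). The antisense RNA ATP6V0E2-AS1, whose span overlaps that of ATP6V0E2 in the GRCh38.p14 annotation, read 3.36, 3.28 and 3.60 against 2.78 to 3.60 (median 3.17). It differed by 0.21 (SE 0.10, limma adjusted p = 0.878), or 1.16-fold, the largest difference of a member from the other 8 concentrations of imazalil, at a level below the median of all genes.

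Other subunits lay on both sides of 0. ATP6V0D1, the ubiquitous subunit that joins the rotor to V1, read 8.90, 8.81 and 8.76 against 8.72 to 8.97 (median 8.87), a difference of -0.047 (SE 0.059). ATP6V0A1, an isoform of the subunit that lines the proton path, was at -0.078 (SE 0.073). In V1, the catalytic subunit ATP6V1A read 10.42, 10.45 and 10.41, above the DMSO values of 10.24, 10.34 and 10.37, and differed by 0.067 (SE 0.051, exact permutation p = 0.0369) from the other concentrations. A second probe set of ATP6V1A went the other way, at -0.027 (SE 0.065) against the other concentrations and -0.041 (SE 0.086) against DMSO. ATP6V1H, the regulatory subunit, differed by 0.065 (SE 0.063), ATP6V1C1 by -0.066 (SE 0.07) and ATP6V1C2 by -0.11 (SE 0.10). The 4 probe sets of ATP6V1C1 ran from -0.097 to 0.13, and the 1 above 0 was at 0.13 (SE 0.070). Over all members the exact permutation test of single genes (3 arrays against 24, two-sided, all regroupings) gave a p under 0.05 for 7 of 49, where 6.1% of all probe sets reached it. These p-values are not adjusted for the number of genes.

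**Figure D2:**
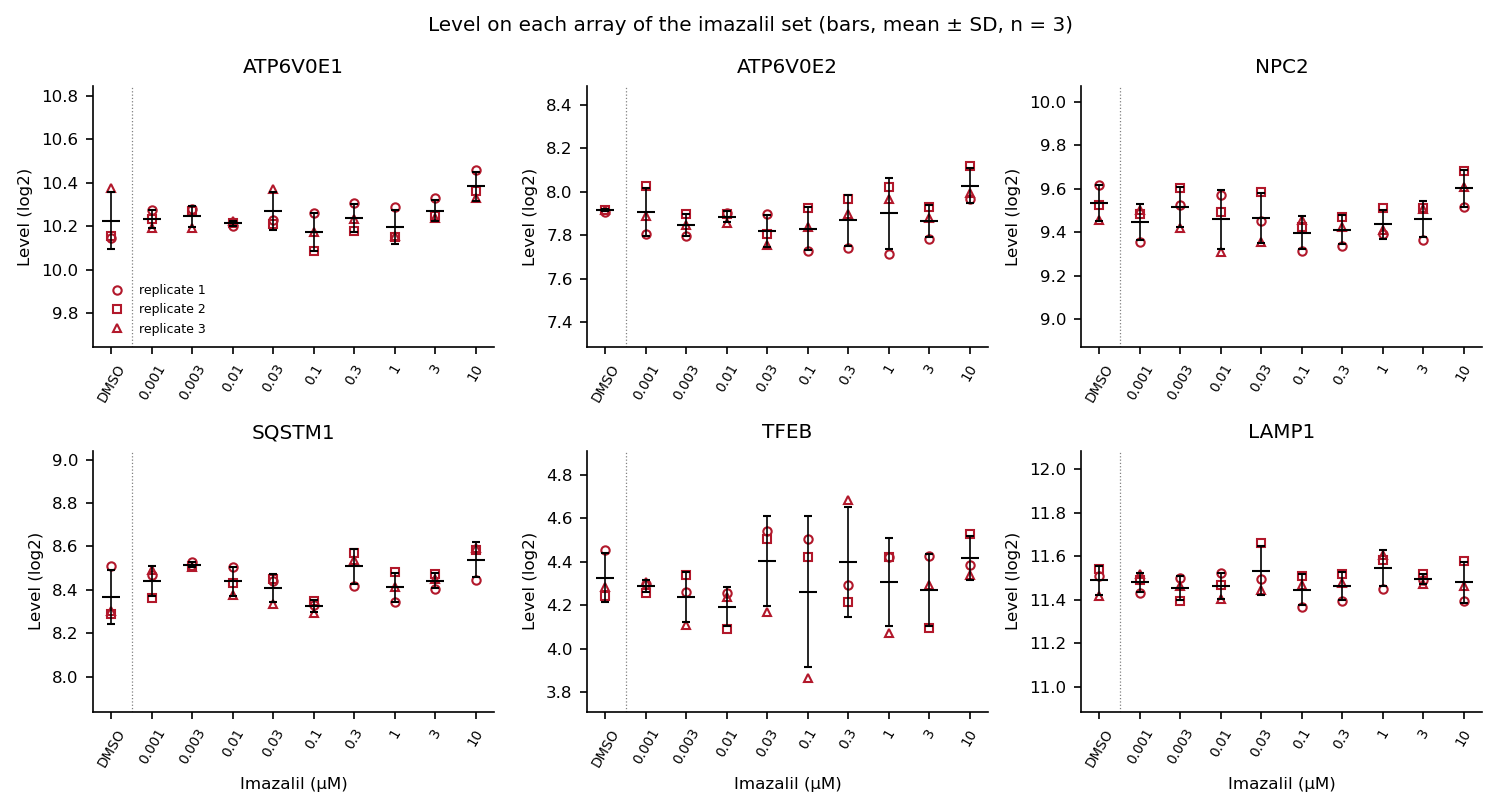
Level (log2, y axis) on each array of the imazalil set by concentration (x axis, DMSO at the left) for 6 genes, with a symbol for each replicate number and bars for the mean ± SD (n = 3). The means of ATP6V0E1, ATP6V0E2, NPC2 and SQSTM1 at 10 µM lie above those of the other concentrations, by 0.10 to 0.16 over all 24 arrays, and LAMP1 differs by -0.0056.

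Along the concentrations of imazalil the members showed no slope that passed. The trend per log10 unit of concentration over the 27 treated arrays passed for 0 of 49 members, where 0.00183% of probe sets passed, and reached an unadjusted p under 0.05 for 0 of 49, where 4.92% did. The slopes with the smallest p were 0.021 (SE 0.013) for ATP6V0E1 and 0.021 (SE 0.016) for ATP6V0E2, both with a limma adjusted p of 0.986. The moderated F test over all 9 differences from DMSO passed for 0 of 49 members, where 0% of probe sets passed. The mean of ATP6V0E1 was 10.38 at 10 µM, and the highest mean below it was 10.27 at 3 µM. For 16 of 49 members the mean at 10 µM was the highest of the 9, where this was so for 13% of all probe sets. Among the 42 members above the median level the same 16 had it, where 13.2% of probe sets of such a level did. They were TFEB, SCARB2, LIPA, NPC1, NPC2, PSAP, CTSL, GLA, GLB1, SQSTM1 and the subunits ATP6V0B, ATP6V0E1, ATP6V0E2, ATP6V1A, ATP6V1E1 and ATP6V1G1. Counts of members at single concentrations of the 3 chemicals were also 0 of 49 in each of 27 differences from DMSO, where 6.78e-05% of all tests passed.

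**Figure D3:**
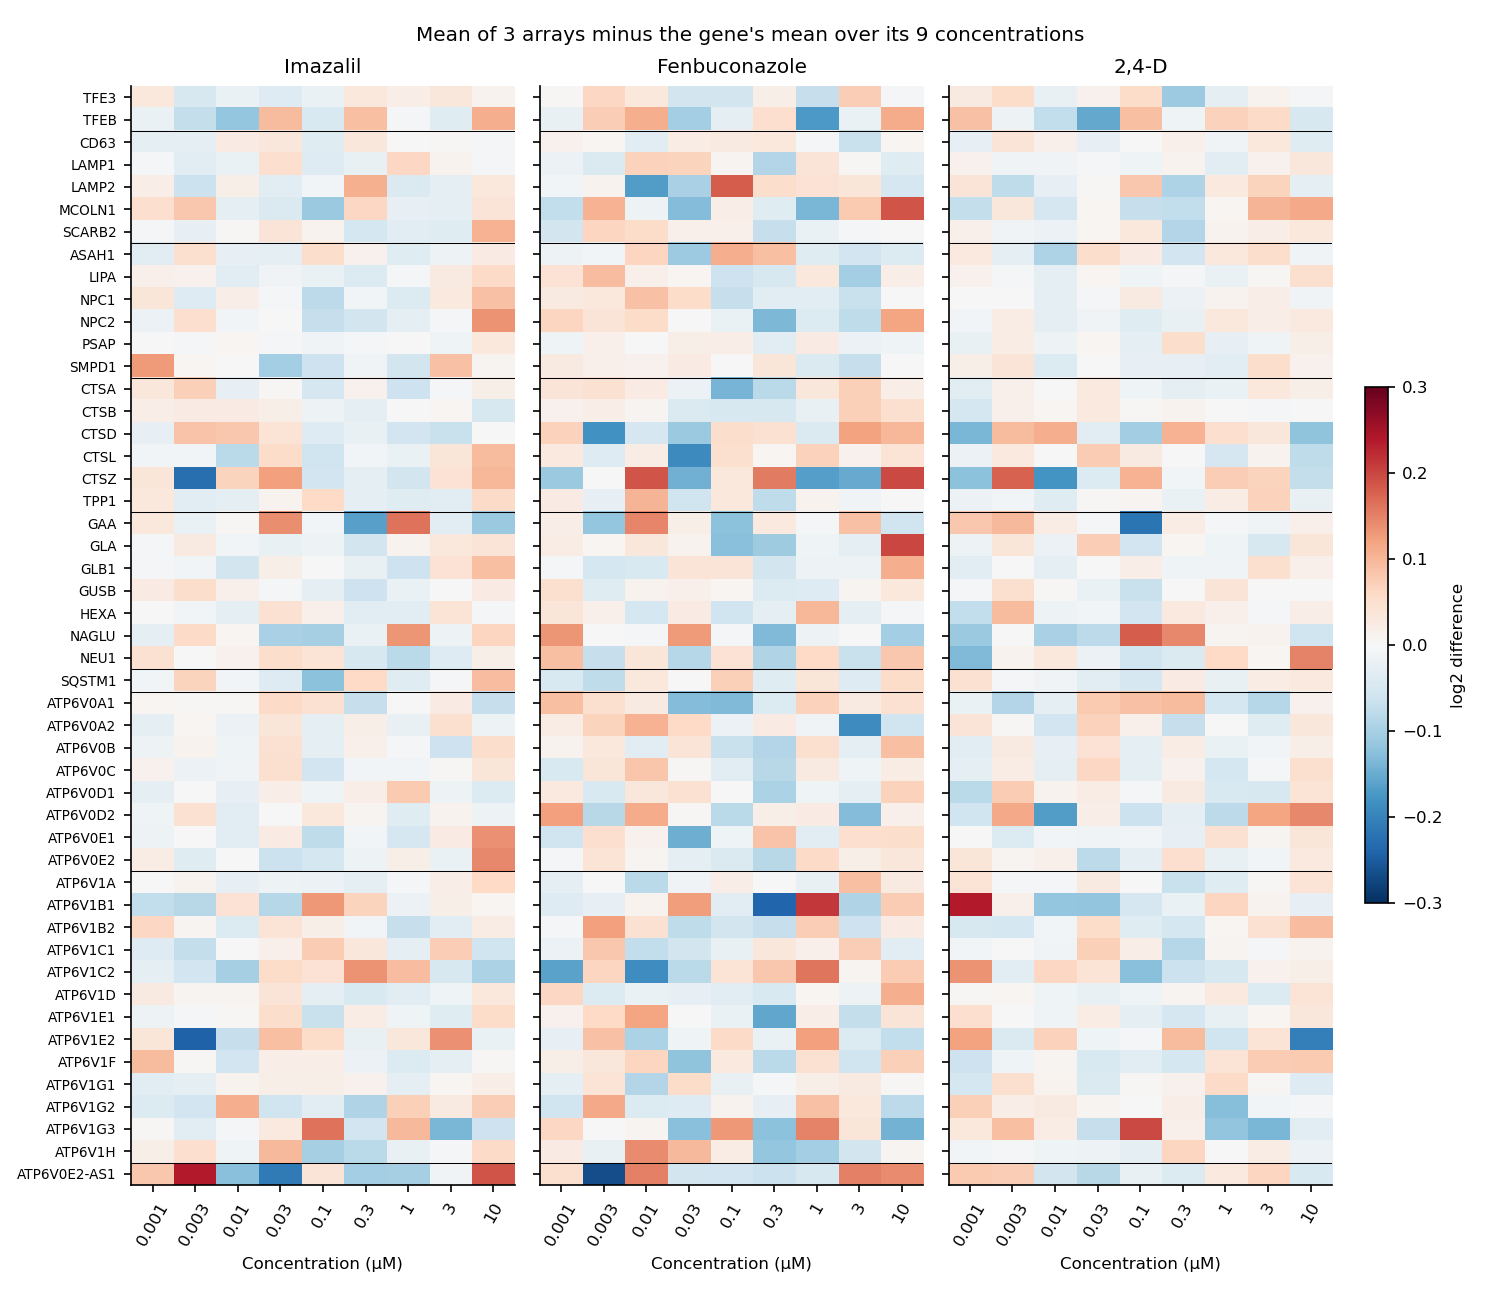
Mean of the 3 arrays at each concentration (x axis, µM) minus the mean over the 9 concentrations of the same chemical, for each member (y axis, ordered by role), as a log2 difference from -0.3 (blue) to 0.3 (red). In the imazalil panel NPC2, ATP6V0E1 and ATP6V0E2 are redder at 10 µM than at any other concentration, at 0.15 to 0.16 above them, and in the fenbuconazole panel GLA and MCOLN1 are, at 0.23 and 0.21.

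Fenbuconazole gave 0 of 49 members past the threshold against its other 8 concentrations, where 0.00366% of probe sets passed, and 0 of 49 against DMSO, along the trend or in the F test, where 0% passed in each. The smallest adjusted p of a member was 0.683. Limma counted 2 members with an unadjusted p under 0.05 against the other 8 concentrations (5.85% of probe sets), 2 against DMSO (7% of probe sets) and 3 along the trend (4.3% of probe sets). GLA, the alpha-galactosidase lacking in Fabry disease, read 8.39, 8.33 and 8.37 at 10 µM, against 7.88 to 8.34 (median 8.14) at the other concentrations. In DMSO it read 8.39, 7.85 and 8.16, so that the vehicle alone spanned more than the difference. That difference was 0.23 (SE 0.082, limma adjusted p = 0.683, exact permutation p = 0.00103) from the other concentrations, or 1.17-fold, and the largest of a member in that comparison. MCOLN1, the channel, read 5.58, 5.56 and 5.68 against 5.11 to 5.60 (median 5.41) and against 5.27, 5.56 and 5.39 in DMSO, with a difference of 0.21 (SE 0.077, limma adjusted p = 0.692, exact permutation p = 0.0106). TFEB was at 0.31 (SE 0.14, limma adjusted p = 0.684) against DMSO and at 0.12 (SE 0.10) against the other concentrations, and its mean stood above that of DMSO at all 9 concentrations, by 0.021 to 0.31. A second probe set of TFEB gave 0.17 (SE 0.15) against DMSO and 0.069 (SE 0.11) against the other concentrations.

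Of the other members under fenbuconazole, NPC2 differed by 0.13 (SE 0.084) and the V1 stalk subunit ATP6V1D by 0.12 (SE 0.073), while ATP6V1G3 differed by -0.16 (SE 0.10) and NAGLU, which degrades heparan sulphate, by -0.12 (SE 0.08). All 6 peptidases stood higher, with a median of 0.051, and of 21 ATPase subunits 16 did, with a median of 0.031. The slopes with the smallest p were those of ATP6V1C2 at 0.054 (SE 0.021), ATP6V0A2 at -0.046 (SE 0.02) and NAGLU at -0.041 (SE 0.02), all with a limma adjusted p of 1.00. The exact permutation test gave a p under 0.05 for 3 of 49 members, where 6.32% of probe sets reached it. For 10 of 49 the mean at 10 µM was the highest of the 9 (12.5% of probe sets), and for 10 of the 44 above the median level (10.5% of such probe sets). Intervals were wider than for imazalil: 48 of 49 lay within 1.5-fold against the other concentrations, CTSZ reaching 0.63.

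The herbicide 2,4-D gave 0 of 49 members past the threshold against its other 8 concentrations, where 0.00183% of probe sets passed, and 0 of 49 against DMSO, along the trend or in the F test, where 0% passed in each. The smallest adjusted p of a member was 0.715. Limma counted 2 members with an unadjusted p under 0.05 against the other 8 concentrations (6.27% of probe sets), 4 against DMSO, all lower (3.85% of probe sets), and 1 along the trend (3.67% of probe sets). ATP6V1E2, an isoform of the V1 stalk found mainly in testis, read 4.00, 3.75 and 3.55 at 10 µM, against 3.77 to 4.27 (median 3.97) at the other concentrations and 3.75, 3.95 and 3.99 in DMSO. Its difference was -0.23 (SE 0.088, limma adjusted p = 0.715, exact permutation p = 0.0168), with 1 of its arrays inside the range of the others. NEU1, the sialidase, read 7.27, 7.34 and 7.04 against 6.85 to 7.22 (median 7.03) and against 7.19, 7.19 and 6.97 in DMSO, with a difference of 0.17 (SE 0.067, limma adjusted p = 0.733, exact permutation p = 0.0123) and the smallest p of the slopes, at 0.038 (SE 0.016). CTSD read 5.89, 5.87 and 5.99, below the DMSO values of 6.32, 6.22 and 6.14, and differed by -0.31 (SE 0.14) from DMSO and by -0.14 (SE 0.10) from the other concentrations, which ran from 5.60 to 6.42. TFEB was at -0.053 (SE 0.10) and LAMP1 at 0.038 (SE 0.049) against the other concentrations. A second probe set of TFEB went the other way, at 0.11 (SE 0.13). Against DMSO it was at 0.41 (SE 0.17), where the first was at -0.062 (SE 0.13). The other probe sets of LAMP1 were at -0.023, -0.071 and -0.18 against the other concentrations. Against DMSO its 4 probe sets ran from -0.35 (SE 0.12) to 0.029 (SE 0.065).

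Of the 6 peptidases 1 stood higher at 10 µM 2,4-D than at its other concentrations, with a median of -0.053, and all 8 V0 subunits did, with a median of 0.039. From these concentrations MCOLN1 differed by 0.13 (SE 0.079), ATP6V0D2 by 0.16 (SE 0.10) and ATP6V1B2 by 0.10 (SE 0.058). CTSL differed by -0.085 (SE 0.070) and ATP6V1G1 by -0.045 (SE 0.047). Against DMSO, GAA was at 0.21 (SE 0.11), MCOLN1 at 0.18 (SE 0.11), NAGLU at -0.26 (SE 0.099) and ATP6V1C2 at -0.26 (SE 0.10). The exact permutation test gave a p under 0.05 for 2 of 49 members, where 6.93% of probe sets reached it. The mean at 10 µM was the highest of the 9 for 9 of 49 members (12.3% of probe sets), and for 8 of the 44 above the median level (10.2% of such probe sets).

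Means were also read against the vehicle at every concentration. Under imazalil 7 members lay above the DMSO mean at all 9 concentrations (12.1% of probe sets did) and 4 below it at all 9 (10.4%). Under 2,4-D 1 lay above at all 9 (9.57% of probe sets) and 11 below (11.1%), and under fenbuconazole 2 above (13%) and 5 below (13.6%). The 7 were ASAH1, LAMP2, SCARB2 and the subunits ATP6V0A1, ATP6V0A2, ATP6V0D2 and ATP6V1A. The 4 were ATP6V1C2, by -0.33 to -0.095, and ATP6V1G3, by -0.34 to -0.038, both at levels below the median of the imazalil set, with NAGLU, by -0.26 to -0.026, and CTSD, by -0.20 to -0.049. The same 4 lay below DMSO at all 9 concentrations of 2,4-D, and since both sets share their 3 DMSO arrays, these are readings of the same vehicle values.

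At 10 µM the 3 arrays lay above all 3 DMSO values for 4 members under imazalil (4.31% of probe sets), 2 under fenbuconazole (5.39%) and 3 under 2,4-D (3.22%). They lay below all 3 for 0 members under imazalil (3.66% of probe sets), 1 under fenbuconazole (5.76%) and 3 under 2,4-D (3.8%). The 4 under imazalil were LAMP2, ATP6V0E2, ATP6V1A and ATP6V1G2, the last at a level below the median of the set. The 3 arrays lay above all 24 arrays of the other concentrations for 0 members of each set, where 0.0531% of probe sets did for imazalil, 0.0513% for fenbuconazole and 0.0403% for 2,4-D. They lay below all 24 for 0 members as well, where 0.0549%, 0.103% and 0.0696% of probe sets did, so that a count of 0 in 49 is near the background.

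The chemicals were compared at the matched concentration of 10 µM, each relative to its own other 8 concentrations, in 3 pairs. None of the 49 members passed for imazalil against fenbuconazole (0.00366% of probe sets), imazalil against 2,4-D (0.00183%) or fenbuconazole against 2,4-D (0.00183%), with p-values adjusted over all probe sets within a pair (limma). Adjusted over the 3 pairs together 0 passed too, the smallest adjusted p being 0.982, for fenbuconazole against 2,4-D. An unadjusted p under 0.05 was reached by 1, 0 and 1 members in these pairs, where 5.04%, 4.66% and 5.06% of probe sets reached it. The gene was GLA in both, whose difference was lower under imazalil than under fenbuconazole (-0.18, SE 0.081, limma adjusted p = 0.963), and higher under fenbuconazole than under 2,4-D (0.19, SE 0.081, limma adjusted p = 0.955). Between the imidazole and the triazole 0 of 49 members differed past the threshold, with intervals for single genes reaching from -0.60 to 0.50. For NPC1 imazalil exceeded 2,4-D by 0.11 (SE 0.066, interval -0.022 to 0.24) and for CTSL by 0.19 (SE 0.12, interval -0.042 to 0.42). For NAGLU imazalil exceeded fenbuconazole by 0.19 (SE 0.11, interval -0.037 to 0.41), and for CTSD fenbuconazole exceeded 2,4-D by 0.25 (SE 0.15, interval -0.055 to 0.55). Of the 49 intervals 48, 47 and 48 lay within 1.5-fold either way in the 3 pairs, which does not show that the chemicals act alike on smaller scales.

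Beside all genes measured, more members than not stood higher at 10 µM than at the other 8 concentrations of each chemical, by small amounts, while against DMSO this was so for imazalil and fenbuconazole and not for 2,4-D. Against the other 8 concentrations 36 of 49 members stood higher for imazalil (median 0.036), where 49.0% of all genes did (median -0.0018). For fenbuconazole 35 stood higher (median 0.026; all genes 48.6% and -0.0037), and for 2,4-D 29 (median 0.018; all genes 49.1% and -0.0018). Among genes above the median level, 33 of 42 members stood higher for imazalil, where 49.9% of all such genes did. At such levels 32 of 44 members stood higher for fenbuconazole (all such genes 45.01%) and 26 of 44 for 2,4-D (43.73%). Against DMSO 33 stood higher for imazalil (median 0.039; all genes 50.2%), 32 for fenbuconazole (median 0.026; all genes 48.4%) and 23 for 2,4-D (median -0.0023; all genes 46.7%). Single replicates weighed on these medians: without replicate 2 the fenbuconazole median against DMSO was -0.0054, and the 2,4-D median against the other concentrations 0.0048. The median over members on each array, taken as the deviation from each gene's mean over its set, was 0.029, 0.033 and 0.078 on the 10 µM imazalil arrays, against -0.038 to 0.035 on the other 24 treated arrays and up to 0.039 in DMSO. For fenbuconazole it was 0.0063, 0.0069 and 0.081 at 10 µM, against -0.065 to 0.045 on the other treated arrays and up to 0.065 in DMSO. Replicate 2 was the highest of the 3 at 10 µM in both of these sets. In the fenbuconazole set replicate 2 lay above 0 in every group, at 0.065 in DMSO and 0.014 to 0.035 at the other concentrations. In the imazalil set its medians outside 10 µM ran from -0.0093 to 0.027. For 2,4-D the median was 0.044, 0.022 and -0.015 at 10 µM, against -0.037 to 0.042 on the other treated arrays and up to 0.042 in DMSO. Its replicate 3 lay below 0 in every group but 0.003 µM. Of the 49 members 18 stood higher at 10 µM than at the other concentrations in all 3 chemicals, where 14% of probe sets did, and 18 of the 42 members above the median level of each set, where 12.6% of such probe sets did. Genes of a pathway and arrays of a set share sources of variation, and no test was made of the list. GLB1, NPC2, MCOLN1, GLA, NEU1, ATP6V0B and ATP6V0C were among the 18, while ATP6V1E2 and ATP6V1G3 stood lower in all 3.

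**Figure D4:**
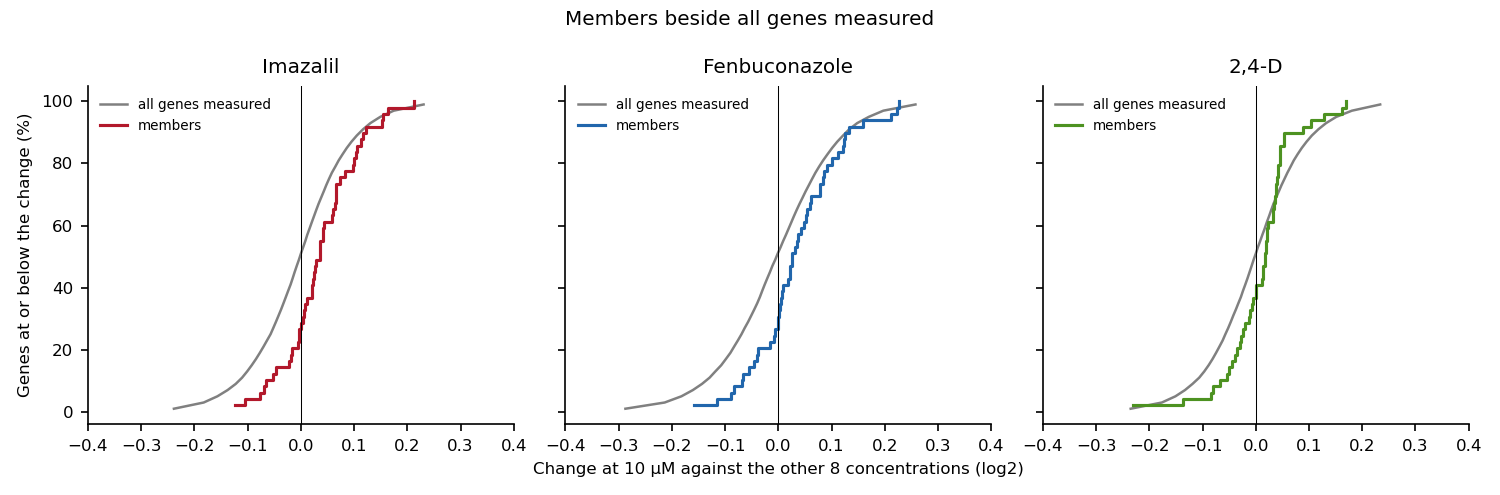
Share of genes (%, y axis) at or below a given difference at 10 µM from the other 8 concentrations (log2, x axis) for the 49 members (coloured steps) and all 19774 genes measured (grey line, percentiles 1 to 99) under each chemical. For imazalil and fenbuconazole the members lie to the right of all genes over most of the range, with medians of 0.036 and 0.026, and for 2,4-D, with a median of 0.018, the lines cross above 0.

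**Figure D5:**
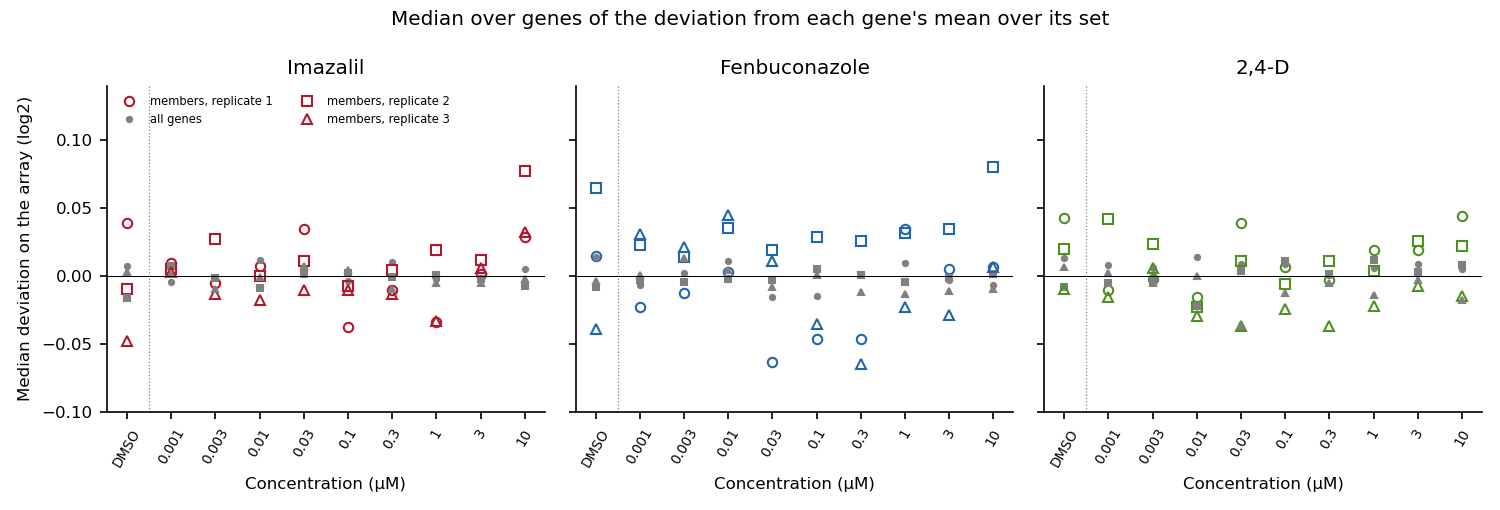
Median over the 49 members (open symbols, 1 shape per replicate number) and over all genes (small grey symbols) of the deviation from each gene's mean over its set (log2, y axis), by concentration (x axis, µM), for each array. At 10 µM imazalil the members' medians are 0.029, 0.033 and 0.078, and the other treated arrays of the set reach 0.035, while the 2,4-D medians at 10 µM lie close to the range of its other arrays.

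The members were also grouped by the motif in their promoters. The 6 genes with TCACGTGA in a promoter had a median difference of 0.0076 at 10 µM imazalil, from -0.12 for GAA to 0.042 for MCOLN1, with 3 of 6 above 0. The 5 genes with CACGTG but without the longer core had a median of 0.021, with 4 above 0 and ATP6V0E2 at 0.16, and the 25 with neither had a median of 0.061, with 21 above 0. For fenbuconazole the medians of these 3 groups were 0.013, 0.091 and 0.047, and for 2,4-D 0.029, 0.020 and 0.014. These are counts of few genes, given as a description.

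Other genes of the pathway were read the same way. Of 46 further lysosomal genes 0 passed against the other concentrations for any chemical, and 26, 22 and 24 stood higher for imazalil, fenbuconazole and 2,4-D, with medians of 0.0068, -0.0024 and 0.0023. Of 39 genes of autophagy and nutrient sensing 0 passed, and 28, 21 and 22 stood higher, with medians of 0.024, 0.0070 and 0.014. At an unadjusted p under 0.05 limma counted 1, 3 and 3 of the lysosomal genes and 3, 2 and 1 of the autophagy genes, where 5.58%, 5.85% and 6.27% of probe sets reached it. Against DMSO 0 of either list passed, and under imazalil 30 of the 46 lysosomal genes (median 0.034) and 22 of the 39 autophagy genes (median 0.013) stood higher. Under imazalil the lysosomal genes with the smallest p among those higher were MAN2B1, a mannosidase, at 0.20 (SE 0.082) and SLC17A5, the sialic acid exporter, at 0.15 (SE 0.092). Among those lower they were SLC36A1, a proton-coupled amino acid transporter, at -0.16 (SE 0.077) and GM2A, the GM2 activator, at -0.19 (SE 0.10). MITF, of the same family as TFEB, was at 0.27 (SE 0.087, limma adjusted p = 0.733) and RRAGC, a Rag GTPase that recruits mTORC1, at 0.12 (SE 0.056). VPS18, of the complexes that tether membranes to lysosomes, was at -0.31 (SE 0.092, limma adjusted p = 0.651) and VPS33A, of the same complexes, at -0.13 (SE 0.10).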

How the data were processed

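Total RNA of A673 cells was hybridized to perfect-match Affymetrix arrays. The authors deposited the arrays as RMA values on the log2 scale (Partek, versions not given in the sources used here), made separately for the 30 columns of each chemical, which brings the arrays of a set to a common distribution. All 90 columns were matched to samples by name. Leaving out 102 control probe sets left 54613, of which 40914 had 1 gene symbol in the platform annotation, 864 several and 12835 none. A gene was read from its brightest probe set with 1 symbol.

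Differences were fitted with limma 3.58.1 (R 4.3.3), 1 model per chemical without a replicate term, and with Benjamini-Hochberg adjustment over all probe sets at 0.05. Pairs of chemicals were compared as differences of differences over the 81 treated columns. Scripts were tested on simulated data. Python 3.11.15 and matplotlib 3.10.9 were used for sequences and figures. With 3 arrays per group, the number of arrays limits the precision.

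The members and lists were chosen with earlier results of these data known. Picked for naming were TFEB, TFE3, MCOLN1, LAMP1, LAMP2, CTSD, NPC1, SQSTM1, ATP6V0D1 and ATP6V1H and, per chemical, the members with the smallest p (4 per direction against the other 8 concentrations, 2 per direction against DMSO, 3 of the trend, 2 of each pair, and for other lists 2 per direction for imazalil). Not every value of these picks is given, the slopes of ATP6V1F and ATP6V1B2 being among those left out. Other genes were named after their values were seen. As alternatives, the fits were repeated with a replicate block, without the dimmer probe sets, on the brightest probe set of each gene alone, with a trended and robust prior, with array weights, after setting array medians equal, with other reference arrays, on the mean of a gene's probe sets and without each replicate.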

Additional observations from a re-analysis of the deposited data

How the results depend on the processing

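All 156 counts of members past the threshold, alternatives included, were 0, and the smallest adjusted p of a member over them was 0.477. Arrays of the same replicate number deviated together, though weakly. Their mean r was 0.042, 0.069 and 0.078 in the fenbuconazole, imazalil and 2,4-D sets, with single pairs below 0. Between different numbers it was -0.021, -0.034 and -0.039. In these sets 24, 28 and 30 of 30 arrays were closest to an array of their own number. The main fits hold no replicate term, so their SEs and intervals do not take this into account. With the replicate number as a block 0 of 49 members passed in each comparison, the smallest adjusted p for imazalil being 0.580. Exact permutation within replicate numbers gave a p under 0.05 for 4 members under 2,4-D in place of 2, the other chemicals keeping within 1.5 times of their counts (8 in place of 7 and 4 in place of 3). With the block, 3 members in place of 1 had an unadjusted p under 0.05 along the 2,4-D trend and 3 in place of 2 against its other 8 concentrations, and the other such counts per chemical were as without it. The members' median at 10 µM imazalil ran from 0.027 to 0.046 with each replicate left out (other 8 concentrations) and from 0.024 (without replicate 3) to 0.064 (without replicate 1) against DMSO. For fenbuconazole it ran from 0.027 to 0.043 (without replicate 3) and from -0.0054 (without replicate 2; 0.0035 without replicate 3) to 0.046 (without replicate 1), and for 2,4-D from 0.0048 (without replicate 2; 0.0059 without replicate 1) to 0.034 (without replicate 3) and from -0.0087 to -0.0027. With the lowest 3 concentrations as reference the fenbuconazole median was 0.0055, and with equal array medians 0.013. Of 2479 values of named genes under an alternative 178 had the other sign, none of them with an unadjusted p under 0.05 before.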
